A study of Mus musculus with 3 samples.

Results

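The keratin and epidermal differentiation windows are 3 stretches of the mouse genome that are named for clusters of genes of skin, hair and other epithelia. On mouse build mm9 they run on chromosome 15 from 101.25 to 101.9 Mb (type II keratins), on chromosome 11 from 99.05 to 100.1 Mb (type I keratins and keratin-associated proteins) and on chromosome 3 from 92.1 to 93.7 Mb (the epidermal differentiation complex). Their members are tiled regions, each a run of at least 3 array probes in which no start is more than 500 bp from the next, with its midpoint inside a window. The 3 windows held 169 of the 28880 tiled regions on the array, of which 26 lay in the type II keratin window, 82 in the type I keratin window and 61 in the epidermal differentiation window. Of the probes placed in the windows, 1 of 371, 3 of 1127 and 21 of 845 fell in no region, and no member was dropped for low signal. The windows were chosen by the ratios of bound over input DNA measured on these same arrays, so those ratios are given as a description, with no test of the members. The files place probes by position and give no gene names, so the genes that each region covers were not determined here, and the windows are called by the clusters they were drawn for.

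The DNA came from frontal cortex of naive male C57BL/6 mice, 2 months old, as 3 pools of 3 mice each, and there was 1 group with no second condition. Methylated fragments were pulled out of 2 µg of sonicated DNA per pool with an antibody against 5-methylcytosine, described as blind to hydroxymethylcytosine (methylated DNA immunoprecipitation, MeDIP). The bound fraction (Cy5) and the input (Cy3) were both amplified by whole-genome amplification and hybridised together to 1 array per pool, always in that dye orientation, so enrichment and a dye effect cannot be told apart. The sample titles number the arrays 1 to 3 but the descriptions call each of them replicate 1, and if arrays shared a pool, the SDs below cover technical spread only. Whole cortex holds neurons, glia and vessel cells, and a difference in the DNA of a cell type cannot be told apart from a difference in all of them. No expression was measured, so the tissue could not be checked against marker genes.

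A level below is the log2 ratio of bound to input DNA averaged over the probes of a region, after subtraction of the array's median. A level of 0 is thus the median probe and not an unmethylated site. The antibody captures fragments according to how many methylated cytosines they hold, so a level is not a methylation percentage. CpG-poor sequence can give little bound DNA even where its CpGs are methylated. Methylation outside CpG pairs was not told apart from methylation within them. Errors are SDs over the 3 arrays (n = 3). Pearson's r between pairs of arrays over the 169 members was 0.904 to 0.925, a description across regions that share probe chemistry and base composition. The median SD of a member's level over arrays was 0.19, as it was over all tiled regions.

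Keratins are the intermediate filament proteins of epithelial cells. Each filament is built from pairs of an acidic type I and a basic type II keratin, such as Krt14 with Krt5 in the basal layer of the epidermis, Krt10 with Krt1 above it, and Krt18 with Krt8 in simple epithelia. In mouse the type II genes form a cluster on chromosome 15, with the type I gene Krt18 at its end, and the other type I genes lie on chromosome 11, interrupted by the genes of the keratin-associated proteins, which cross-link keratins in the hair shaft. The epidermal differentiation complex on chromosome 3 holds loricrin (Lor), involucrin (Ivl), the small proline-rich (Sprr) and late cornified envelope (Lce) proteins and the filaggrin family, which together make the cornified envelope of the outer skin. Neurons and astrocytes build their filaments from other proteins, neurofilaments and Gfap. In most mouse tissues methylation lies mainly on cytosines of CpG pairs. Promoters dense in CpG are as a rule unmethylated, while CpG-poor promoters of tissue-restricted genes are often methylated where the gene is silent.

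To show what kind of sequence these clusters hold, promoters of 7 of their genes were taken from RefSeq (GRCm38.p6, which is not the build of the array), from 250 bases before to 50 bases after the start of the gene. Capitals mark each CpG and each TATAAA read 5′ to 3′ on the strand of the gene. TATAAA is the core of the TATA box, the site of the TATA-binding protein that the series title names. The first 3 come from the type II cluster: Krt5, of the basal epidermis, on the minus strand at chr15:101712856-101713155, Krt72, of the inner root sheath of the hair, on the minus strand at chr15:101786471-101786770, and Krt18, of simple epithelia, on the plus strand at chr15:102027966-102028265.

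Krt5: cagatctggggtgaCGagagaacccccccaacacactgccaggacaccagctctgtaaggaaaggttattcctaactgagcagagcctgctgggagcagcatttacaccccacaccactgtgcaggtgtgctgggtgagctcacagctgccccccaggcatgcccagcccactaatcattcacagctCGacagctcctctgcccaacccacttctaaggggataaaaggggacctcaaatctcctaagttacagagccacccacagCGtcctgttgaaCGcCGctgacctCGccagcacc

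Krt72: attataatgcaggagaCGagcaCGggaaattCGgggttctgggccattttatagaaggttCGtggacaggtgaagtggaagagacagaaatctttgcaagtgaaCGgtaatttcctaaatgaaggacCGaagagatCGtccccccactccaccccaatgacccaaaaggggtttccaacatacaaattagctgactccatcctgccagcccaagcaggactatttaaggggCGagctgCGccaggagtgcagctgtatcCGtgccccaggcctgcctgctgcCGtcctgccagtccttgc

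Krt18: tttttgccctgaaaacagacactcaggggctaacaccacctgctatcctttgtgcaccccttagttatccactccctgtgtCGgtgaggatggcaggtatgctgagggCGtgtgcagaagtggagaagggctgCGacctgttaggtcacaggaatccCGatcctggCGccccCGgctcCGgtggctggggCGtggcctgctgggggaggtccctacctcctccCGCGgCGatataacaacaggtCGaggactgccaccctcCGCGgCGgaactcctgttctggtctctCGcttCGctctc

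These promoters hold 6, 11 and 17 CpGs in 300 bases, in the order printed, and none of them holds TATAAA on the strand shown. The next pair comes from the type I cluster: Krt28, another inner root sheath keratin, on the minus strand at chr11:99374854-99375153, and Krtap4-2, a keratin-associated protein of hair, on the minus strand at chr11:99635035-99635334.

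Krt28: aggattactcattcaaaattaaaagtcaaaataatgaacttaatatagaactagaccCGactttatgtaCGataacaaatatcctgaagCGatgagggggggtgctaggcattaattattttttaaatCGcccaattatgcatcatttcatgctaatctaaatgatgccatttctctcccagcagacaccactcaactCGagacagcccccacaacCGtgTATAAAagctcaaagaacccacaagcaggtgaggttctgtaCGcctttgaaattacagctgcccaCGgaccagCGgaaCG

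Krtap4-2: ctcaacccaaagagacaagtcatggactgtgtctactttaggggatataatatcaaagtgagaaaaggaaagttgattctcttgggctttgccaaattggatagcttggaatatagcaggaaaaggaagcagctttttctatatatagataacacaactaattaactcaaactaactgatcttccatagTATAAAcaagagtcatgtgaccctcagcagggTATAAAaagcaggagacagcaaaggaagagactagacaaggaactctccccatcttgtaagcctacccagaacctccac

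Krt28 has 10 CpGs, the most of the type I keratin promoters found, and Krtap4-2 has 0. Their TATAAA nearest to the gene starts 30 and 29 bases before the start. The last pair comes from the epidermal differentiation complex: Lor, the main protein of the cornified envelope, on the minus strand at chr3:92083093-92083392, and Ivl, an early scaffold of it, on the minus strand at chr3:92573686-92573985.

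Lor: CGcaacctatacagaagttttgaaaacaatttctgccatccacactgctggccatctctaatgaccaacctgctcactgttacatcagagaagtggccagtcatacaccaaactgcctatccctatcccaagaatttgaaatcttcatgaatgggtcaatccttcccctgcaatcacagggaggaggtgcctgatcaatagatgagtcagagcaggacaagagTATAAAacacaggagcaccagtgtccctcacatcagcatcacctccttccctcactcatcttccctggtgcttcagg

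Ivl: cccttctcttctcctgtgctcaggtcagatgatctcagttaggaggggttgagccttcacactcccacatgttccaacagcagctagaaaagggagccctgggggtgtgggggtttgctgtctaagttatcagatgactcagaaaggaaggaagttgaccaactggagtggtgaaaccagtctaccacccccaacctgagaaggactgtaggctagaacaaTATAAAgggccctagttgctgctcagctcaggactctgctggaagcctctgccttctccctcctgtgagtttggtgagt

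Lor has 1 CpG and Ivl has 0, and both have a TATAAA, which starts 27 bases before the gene in Lor and 29 bases before it in Ivl. Over the whole lists the clusters differed in CpG content and in the presence of this motif. Promoters were found for 16 of the 27 genes of the type II cluster, Krt18 included, with a median of 6 CpGs. They were found for 20 of 27 type I keratin genes (median 4.5 CpGs), for 21 of 23 keratin-associated protein genes (median 2) and for 46 of 55 epidermal differentiation genes (median 1), against a median of 7 over all 27025 genes of the promoter table. A gene with more than 1 promoter counts once, by its mean number of CpGs, and as having the motif if any of its promoters does. Genes with at most 1 CpG numbered 0 of 16, 0 of 20, 10 of 21 and 29 of 46 in these lists, in the same order, against 14.0% of all genes of the table. At least 10 CpGs were found in 3 of the 16 type II genes, namely Krt7 (21 CpGs), Krt18 (17) and Krt72 (11), in 1 of 20 type I genes, in 0 of 21 keratin-associated ones, and in 1 of 46 epidermal differentiation genes, S100a11 (15), against 44.4% of all genes of the table.

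TATAAA on the strand of the gene, with its first base 20 to 45 bases before the start, was present in 3 of 16 type II, 10 of 20 type I, 18 of 21 keratin-associated and 18 of 46 epidermal differentiation genes. Over all genes of the table it was present in 2.57%. Within the epidermal differentiation list, 10 of 14 Sprr promoters and 2 of 20 Lce promoters had it, although both families had a median of 1 CpG. TATAAA reads TTTATA on the other strand, and anywhere in the 300 bases on either strand it was found in 6 of 16, 13 of 20, 20 of 21 and 21 of 46 genes of the lists, in the same order, against 15.7% of all genes of the table. A match is a run of letters and not a bound site, and no promoter could be placed on the array. The lists were made by symbol, so a listed gene may lie outside its window.

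The windows stood at different levels (plot of region levels by window and flanks). The type II keratin window had the highest mean, 0.91 ± 0.13, with 1.04, 0.91 and 0.78 on arrays 1 to 3. The type I keratin window averaged 0.23 ± 0.06 and the epidermal differentiation window -0.04 ± 0.06, against -0.05 ± 0.02 over all tiled regions. The median region told the same order, with 0.88, 0.10 and -0.17 in the 3 windows and -0.11 over all tiled regions. Of the type II regions 24 of 26 had a mean above 0, of the type I regions 51 of 82, and of the epidermal differentiation regions 24 of 61. Over all tiled regions 12623 of 28880 had a mean above 0.

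**Figure D1:**
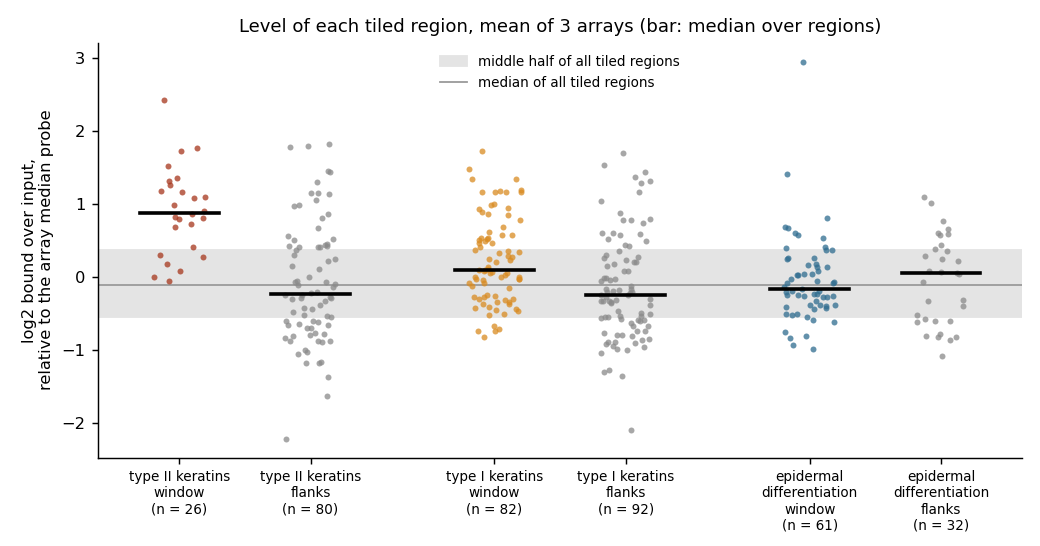
Each point is a tiled region, drawn at its mean log2 bound over input ratio over 3 arrays, for each window and for the regions within 1 Mb outside it; black bars are medians and the grey band spans the quartiles of all tiled regions. The type II keratin regions lie around a median of 0.88, while the type I and epidermal differentiation medians are 0.10 and -0.17.

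Counted by limma over all 28880 tiled regions (Benjamini-Hochberg adjusted p under 0.05), 28.0% of all regions were higher and 38.1% were lower than the array median. In the type II keratin window 21 of 26 regions (80.8%) were called higher and 0 lower. In the type I keratin window 34 of 82 (41.5%) were called higher and 18 (22.0%) lower, and in the epidermal differentiation window 11 of 61 (18.0%) were higher and 19 (31.1%) lower. With loess within arrays the type I window had 38 higher and 11 lower calls. In the epidermal differentiation window the balance of calls turned with the processing, with 9 higher and 26 lower for the authors' log2 ratios, 17 higher and 12 lower under loess, and 13 higher and 10 lower of the 38 regions left when both channels had to be above background. Because the windows were proposed with results of these arrays in view, nothing is read from these counts beyond the description. The split also moves with the point taken as 0: the most frequent value on arrays 1 to 3 was 0.71, 0.81 and 0.63 higher than the median value, and taking that mode as 0 gave higher and lower calls of 11 and 7 in the type II window, 10 and 53 in the type I window, 2 and 52 in the epidermal differentiation window and 2501 and 22196 over all regions. By rank, which no centring changes, 12 of 26 type II, 14 of 82 type I and 2 of 61 epidermal differentiation regions lay in the top 10.0% of all tiled regions, and 0, 0 and 2 of them in the bottom 10.0%.

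The regions within 1 Mb outside each window served as its local background. The type II keratin window exceeded its flanks (80 regions, mean -0.08 ± 0.02) by 0.99 ± 0.13, with differences of 1.13, 0.97 and 0.88 on the 3 arrays. The type I keratin window exceeded its flanks (92 regions, -0.14 ± 0.05) by 0.38 ± 0.07, with 0.33, 0.45 and 0.35. Both differences were larger than their spread over arrays and had the same sign on each. The epidermal differentiation window differed from its flanks (32 regions, -0.06 ± 0.05) by 0.01 ± 0.10, with -0.10, 0.04 and 0.09 on the arrays, which is within that spread. With the authors' log2 ratios it was -0.16 ± 0.01, and with both channels above background -0.15 ± 0.03, below the flanks by more than the spread.

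**Figure D2:**
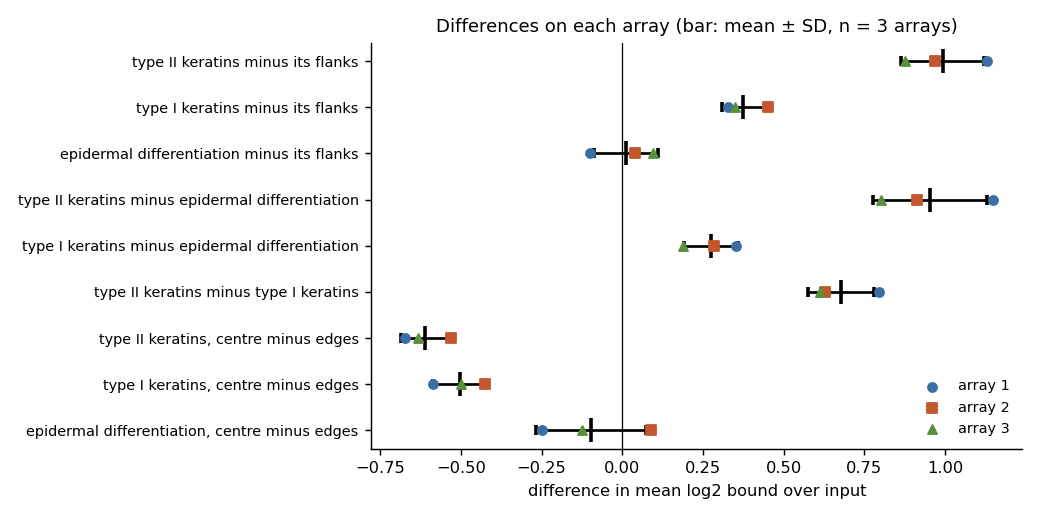
Differences in mean log2 bound over input, one row for each comparison and a symbol for each array, with black bars for the mean ± SD over 3 arrays. The type II and type I windows minus their flanks are above 0 on all 3 arrays, while the epidermal differentiation window minus its flanks lies on both sides of 0.

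Set against each other, the type II window was above the epidermal differentiation window by 0.95 ± 0.18 (1.15, 0.91 and 0.80 on the arrays) and above the type I window by 0.68 ± 0.10 (0.80, 0.63 and 0.61). The type I window was above the epidermal differentiation window by 0.27 ± 0.08 (0.35, 0.29 and 0.19). The size of these differences depended on the processing more than on the array. With normexp background correction in place of the scanner's, the type II window exceeded its flanks by 0.48 and the type I window exceeded its flanks by 0.20, and with the authors' log2 ratios the type I difference was 0.15.

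The flanks were not alike on the 2 sides (plot of regions along the windows). Below the type II keratin window, towards the start of the chromosome, 32 flank regions averaged 0.38 ± 0.07, and above it 48 regions averaged -0.39 ± 0.05. The type II window was therefore above both sides, by less on the lower side. The type I flanks were at -0.15 ± 0.03 (46 regions below) and -0.14 ± 0.07 (46 above). Below the epidermal differentiation window the array held 7 regions, at 0.05 ± 0.11, and above it 25, at -0.09 ± 0.05.

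**Figure D3:**
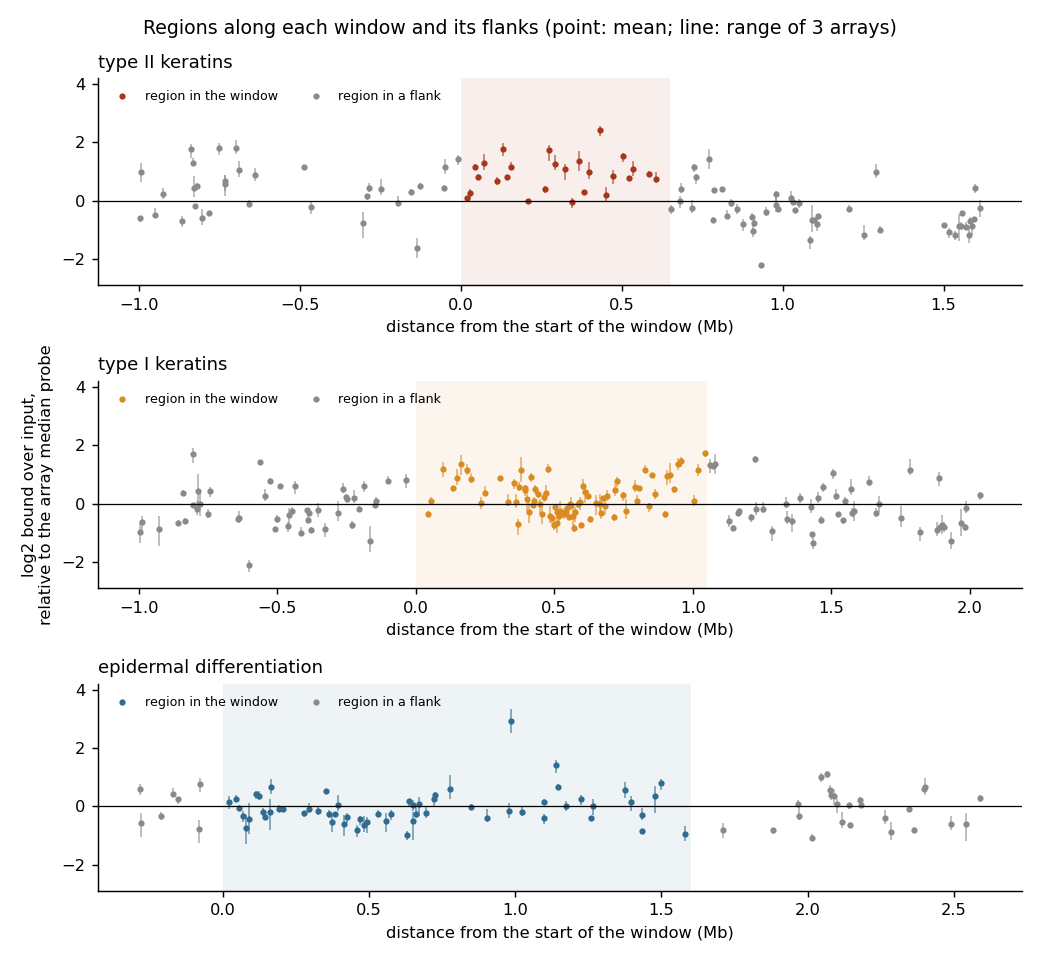
Level of each tiled region (point, mean; line, range over 3 arrays) by distance from the start of its window, with the window shaded and flank regions in grey. Most type II regions lie above 0 along the whole window, type I regions average 0.59 in both ends and -0.01 in the middle, and the epidermal differentiation regions lie on both sides of 0, from -0.99 to 2.95.

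Within the type II keratin window regions with high levels lay along the whole length, with 5 regions among them that were not called in either direction. Cut into 3 equal lengths, a division made after the values were seen, it averaged 0.81 ± 0.11 over 10 regions from 101.25 to 101.467 Mb, 1.06 ± 0.20 over 9 regions up to 101.683 Mb and 0.87 ± 0.10 over 7 regions up to 101.9 Mb. The middle length was above the other 2 on each array, with 1.19, 1.15 and 0.83, against 0.93, 0.75 and 0.74 in the first and 0.98, 0.84 and 0.78 in the last. Gaps between neighbouring regions had a median of 17515 bp, so most of the window's sequence was not on the array.

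The highest type II region was chr15:101681066-101682436 (mm9, 16 probes), at 2.50, 2.55 and 2.22 on the 3 arrays (mean 2.42 ± 0.18), the 99.6th percentile of all tiled regions. Its lowest probe averaged 1.16 and its highest 3.41, so every probe of it stood above the array median. The next were chr15:101380931-101382317 at 1.98, 1.78 and 1.54 and chr15:101524672-101525931 at 1.91, 1.91 and 1.36. Bound DNA was well above background in 47 of 48, 45 of 48 and 42 of 45 measurements (a probe on an array) of these regions, in the order given. The lowest were chr15:101593776-101595095 at 0.09, -0.03 and -0.24, chr15:101458401-101459685 at 0.05, -0.09 and 0.02, and chr15:101269073-101270245 at 0.15, 0.02 and 0.08. None of the lowest 3 was called in either direction, and they do not adjoin each other. The member with the smallest share of bound measurements above background was chr15:101510567-101511807, with 19 of 39, and its level was 0.42 ± 0.15. The longest, chr15:101616680-101618114 (1435 bp), was at 1.36 ± 0.34.

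At the lower edge of the type II window the first member inside, chr15:101269073-101270245, was at 0.09 ± 0.07, and the last region outside, chr15:101240317-101243023, was at 1.44 ± 0.20. At the upper edge the last member, chr15:101857446-101858806, was at 0.73 ± 0.23, and the first region outside, chr15:101903228-101904563, was at -0.28 ± 0.16. The lower edge of the window is thus no boundary of the level. In the 100 kb just below it, 3 flank regions averaged 1.00 ± 0.16. From 101.85 to 101.95 Mb, across the upper edge, 4 regions averaged 0.21 ± 0.11, the last member among them. From 101.95 to 102.05 Mb 6 regions above the window averaged 0.48 ± 0.05, before the level stood at -0.27 ± 0.10 and -0.65 ± 0.08 in the next 2 bins of 100 kb.

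The type I keratin window was tiled most densely, with 78.1 regions per Mb, against 46 per Mb in its flanks and 40 per Mb in the type II window. Its level changed along its length. From 99.05 to 99.4 Mb 12 regions averaged 0.59 ± 0.08, from 99.4 to 99.75 Mb 49 regions averaged -0.01 ± 0.07, and from 99.75 to 100.1 Mb 21 regions averaged 0.59 ± 0.13. Both ends stood above the middle on every array. The lowest 100 kb was from 99.55 to 99.65 Mb, where 17 regions averaged -0.31 ± 0.13 and ran from -0.83 to 0.05. The highest of the bins of 100 kb wholly inside the window was from 99.95 to 100.05 Mb, with 5 regions at 1.05 ± 0.21. In the RefSeq order of genes on chromosome 11 the keratin-associated protein genes also lie in the middle of the cluster, between Krt40 and Krt33a, with keratin genes on both sides. Whether the low regions are those genes was not tested, since their positions on the build of the array were not used here.

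The middle part of this window was also its dimmest. In the middle part 44.9% of probe measurements were well above background in both channels, against 58.7% in the lower end and 69.9% in the upper end, and the mean log2 input signal was 8.78, against 8.98 and 9.55. The share in both channels counts the bound DNA and so depends on the ratio too. Over the 82 members of the window the level and the log2 input had a Pearson's r of 0.45. By bins, the input was 8.90 in the lowest 100 kb, and 8.34 from 99.25 to 99.35 Mb, where 3 regions averaged 0.41. Where the bound signal is below background and the input is not, a ratio is an upper limit, and the part played by brightness in the low level was not tested.

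The highest type I members by the naming rule were chr11:100007226-100008557 at 1.55, 1.61 and 1.26 on the arrays, chr11:99212241-99213587 at 1.66, 1.40 and 0.97 and chr11:99997123-99998482 at 1.57, 1.31 and 1.15. The first had a shape of its own: probes within 200 bp of its midpoint averaged 1.98 and those more than 500 bp away averaged -0.03. In the second it was the reverse, with 0.45 in the centre and 2.32 at the edges. Among the 43 of 82 members that met the rule, the lowest were chr11:99645316-99646662 at -0.82, -0.76 and -0.65, chr11:99566397-99567673 at -0.38, -0.20 and -0.69, and chr11:99590288-99591516 at -0.27, -0.14 and -0.44. All 3 lay in the middle part of the window. The rule leaves out members with few measurements above background, and some of those were lower, such as chr11:99620335-99621701 at -0.83 ± 0.14. The members named for dim bound DNA were chr11:99808606-99809880, at -0.25 ± 0.35, and chr11:99763663-99764849, at -0.47 ± 0.13. Bound DNA was above background in 7 of 42 and 7 of 39 of their measurements and input in 22 of 42 and 20 of 39, so that few of the averaged ratios were measured in both channels. The longest member, chr11:99654571-99656011 (1441 bp), was at 0.61 ± 0.22.

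At the edges of the type I window, the first member was chr11:99092129-99093551 at -0.34 ± 0.06 and the last region before it chr11:99016246-99017447 at 0.79 ± 0.24. The last member was chr11:100093540-100093858, a run of 3 probes at 1.73 ± 0.12, and the first region outside was chr11:100110013-100111446 at 1.31 ± 0.25. High regions therefore continued past the upper edge, and from 100.15 to 100.25 Mb 4 flank regions averaged -0.51 ± 0.09.

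In the epidermal differentiation window most regions were near or below the array median. Cut into 3 equal lengths, again after the values were seen, it averaged -0.18 ± 0.12 over 29 regions up to 92.633 Mb. The next length averaged 0.06 ± 0.01 over 17 regions up to 93.167 Mb, and the last 0.10 ± 0.03 over 15 regions up to 93.7 Mb. The lowest 100 kb with more than 1 region was from 92.5 to 92.6 Mb, where 6 regions averaged -0.56 ± 0.24 and ran from -0.81 to -0.38.

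Of the 61 members, 2 lay in the top 10.0% of all tiled regions. The region chr3:93084085-93085208 (mm9, 17 probes over 1124 bp) had levels of 3.34, 3.00 and 2.52 on the 3 arrays (mean 2.95 ± 0.42), the highest of all 169 members and the 99.9th percentile of all tiled regions. All 51 of its measurements were above background in both channels, its lowest probe averaged 1.76, and its centre (3.16) and edges (3.21) were alike. Its input was also the brightest of any member, with a log2 signal of 13.96, the 99.9th percentile of input over all tiled regions, and the part that this plays in its ratio was not tested. The next member, chr3:93237061-93238348, was at 1.61, 1.50 and 1.14, with a log2 input of 9.51, and the next after it, chr3:93599195-93600486, at 0.87, 0.96 and 0.57. Without the brightest member, an alternative added after the values were seen, the window minus its flanks was -0.04 ± 0.11, again within the spread over arrays.

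Among the 17 of 61 members that met the naming rule, the lowest were chr3:93534076-93534715 at -0.80, -0.81 and -0.91, chr3:93357777-93359215 at -0.37, -0.41 and -0.43, and chr3:93531741-93532358 at -0.47, -0.06 and -0.31. The rule leaves out members with few measurements above background, and the lowest of all 61 averaged -0.99. The members named for dim bound DNA were chr3:92512815-92513679, at -0.59 ± 0.37, and chr3:92176629-92178036, at -0.75 ± 0.50. Bound DNA was above background in 1 of 30 and 5 of 45 of their measurements and input in 16 of 30 and 26 of 45, so that few of these ratios were measured in both channels. The longest member, chr3:92241292-92243858 (2567 bp, 27 probes), was at -0.38 ± 0.09. The first and last members were chr3:92119440-92120819 at 0.16 ± 0.23 and chr3:93680329-93681150 at -0.94 ± 0.26, and the nearest regions outside were chr3:92019803-92020022 at 0.77 ± 0.25 and chr3:93811128-93811913 at -0.82 ± 0.25.

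The windows differed in how much of them could be measured (plot of measurement classes). Both channels were well above background for 79.0% of probe measurements in the type II window, against 62.0% in its flanks. The share was 53.0% in the type I window, against 63.6% in its flanks, and 37.6% in the epidermal differentiation window, against 58.5% in its flanks. Over all tiled regions it was 53.6%. Both channels were below background for 11.6%, 30.2% and 42.0% of measurements in the type II, type I and epidermal differentiation windows, against 25.1% over all regions. Such measurements hold no measured ratio but were averaged into the levels. Their values averaged 0.34, 0.25 and 0.20 in the windows, in the same order, and 0.21 over all regions. Bound DNA was above background for less than 50% of the measurements in 1 of 26 type II, 37 of 82 type I and 40 of 61 epidermal differentiation regions, against 40.4% of all tiled regions.

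**Figure D4:**
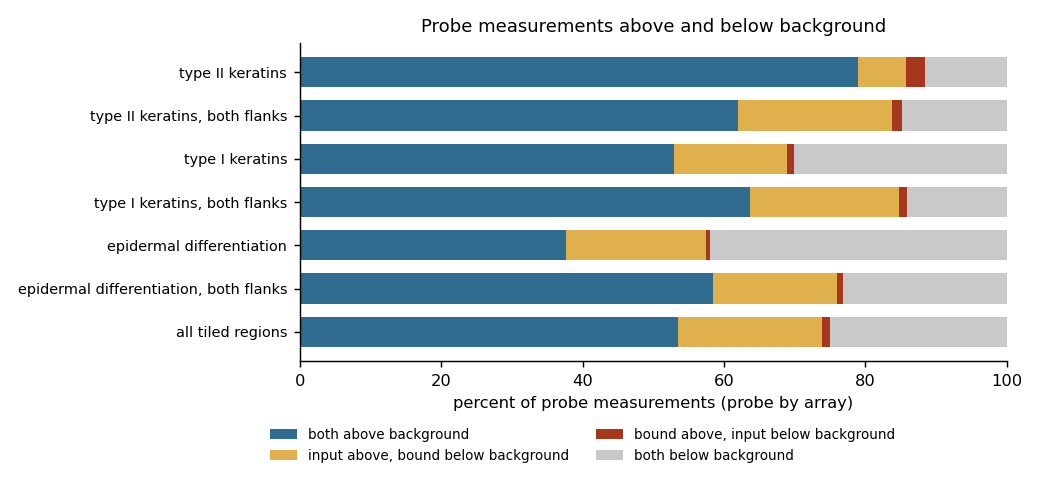
Share of probe measurements (probe by array) in each class of signal above or below background, for the windows, their flanks and all tiled regions. Both channels are above background for 79.0% of measurements in the type II window and for 37.6% in the epidermal differentiation window.

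The order of the windows was the same over measurements with both channels above background. That choice drops measurements with dim bound DNA, and so low ratios. It kept 79.0%, 53.0% and 37.6% of measurements in the type II, type I and epidermal differentiation windows. It is therefore no separate check of the order. Over the measurements kept, the mean ratio was 1.14 in the type II window, against 0.28 in its flanks, and 0.56 in the type I window, against 0.21 in its flanks. It was 0.23 in the epidermal differentiation window, against 0.33 in its flanks, and 0.26 over all tiled regions. On each array the type II and type I windows were above their flanks, and the epidermal differentiation window was below its flanks by this measure, with 0.24, 0.28 and 0.17 in the window and 0.38, 0.36 and 0.23 in the flanks. Where the input was above background and the bound DNA was not, the ratios averaged -0.60, -1.16 and -1.23 in the type II, type I and epidermal differentiation windows, and -1.48 over all regions.

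Input brightness itself differed, and it depends on each probe's sequence and copy number as well as on the DNA. The mean log2 input signal was 9.73 ± 0.23 in the type II window, against 9.53 ± 0.16 in its flanks. It was 9.01 ± 0.35 in the type I window, against 9.59 ± 0.14 in its flanks, and 8.56 ± 0.37 in the epidermal differentiation window, against 9.24 ± 0.28 in its flanks. Across the members of a window the level and the log2 input had a Pearson's r of 0.58 (26 regions), 0.45 (82) and 0.37 (61), and over all 28880 regions of 0.08. The last of the 3 rests on 1 region, since without the brightest member it was -0.04. The regions of a window share arrays and base composition, so these values describe the arrays and carry no test. Probes were also longer in the type I and epidermal differentiation windows, with means of 54.9 and 56.3 nt, against 50.0 and 52.8 nt in their flanks, and were 51.1 nt in the type II window, against 50.1 nt in its flanks. Whether brightness or probe length plays a part in the differences between windows was not tested.

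Within regions the level changed from the middle to the ends (plot of levels by distance from the midpoint). This was measured in regions 1000 to 1800 bp long with at least 8 probes, as the mean of probes within 200 bp of the midpoint (centre) minus that of probes more than 500 bp from it (edges). In 24 type II regions the centre stood at 0.66 ± 0.12 against 1.28 ± 0.14 for the edges, which differ by -0.61 ± 0.07, with -0.67, -0.53 and -0.63 on the arrays. In 69 type I regions the centre stood at -0.01 ± 0.05 against 0.50 ± 0.06 for the edges, which differ by -0.50 ± 0.08, with -0.59, -0.43 and -0.50. Both differences had the same sign on every array and were larger than their spread.

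The flanks of the keratin windows and the array as a whole showed the same direction. The centre minus the edges was -0.39 ± 0.11 in 52 flank regions of the type II window, -0.44 ± 0.15 in 67 of the type I window and -0.29 ± 0.08 in 18326 regions of all tiled ones. The centres of the type II regions, at 0.66, stood above the edges of its flank regions, at 0.11 ± 0.04. In the epidermal differentiation window the difference was within its spread over arrays, but with the authors' log2 ratios it was -0.37 ± 0.15, beyond that spread. In 38 of its regions the centre stood at 0.08 ± 0.12 against 0.17 ± 0.08 for the edges, which differ by -0.10 ± 0.17, with -0.25, 0.09 and -0.13 on the arrays, against -0.68 ± 0.10 in 22 regions of its flanks, with -0.78, -0.60 and -0.64. The window's value was less negative than that of its flanks on each array. Both channels were below background for 42.0% of all measurements in the window and 23.2% in its flanks. With input above background on all arrays 8 of the window's regions were left, at -0.16 ± 0.20. With both channels above background 2 were left, at -0.12 ± 0.20. What part the dim measurements play in this difference was not tested.

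**Figure D5:**
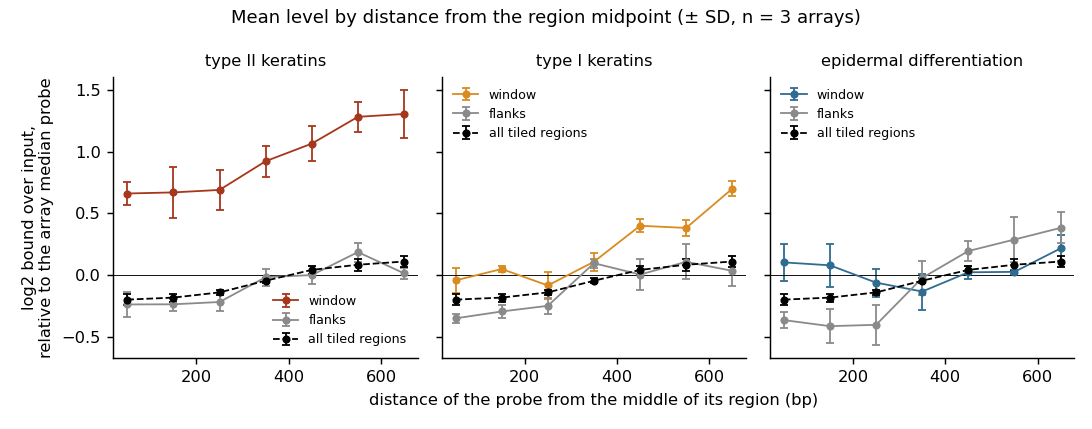
Mean log2 bound over input by the distance of a probe from the midpoint of its region, in bins of 100 bp, for each window (colour), its flanks (grey) and all tiled regions (dashed), with SDs over 3 arrays. Type II levels climb from 0.66 near the midpoint to 1.30 at 600 to 700 bp, while the epidermal differentiation profile stays between -0.13 and 0.22.

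Counted by region, the centre was below the edges on all 3 arrays in 44.4% of all 18326 such regions and above them on all 3 arrays in 24.0%. In the type II window it was below in 19 of 24 (79.2%) and above in 1, the region chr15:101524672-101525931 named above, with a centre of 2.56 and edges of 1.46. In the type I window it was below in 37 of 69 (53.6%) and above in 3, and in the epidermal differentiation window below in 9 of 38 (23.7%) and above in 5. The windows were proposed with results of these arrays in view, so these counts are a description. The deepest dip among the type II regions was -1.74. The type I dip depended on the processing: it was -0.17 with loess within arrays and -0.81 with the authors' log2 ratios.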

How the data were processed

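MeDIP was measured on 3 arrays of frontal cortex DNA, 1 pool of 3 mice each. Per the file headers, the deposited scanner files hold intensities made with Agilent Feature Extraction 10.7.3.1: processed signals are background-subtracted, spatially detrended and scaled by 1 linear factor per channel, with surrogate values near background. The deposited log10 ratio column (bound over input, per the file headers) was not used. The log2 ratios of the series matrix, deposited by the authors, tracked log2 of the bound over input spot medians (r of at least 0.999) with column medians of -0.97; their centring is unstated, and they served as an alternative.

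For each of 420288 spots per array (4474 control spots and outlier flags left out) the log2 ratio of bound to input processed signals was computed, repeated probes were averaged and each array was centred on its median. Medians before centring were -0.19, -0.19 and -0.09. Of the 409597 placed probes, 405623 formed the 28880 tiled regions. Bound DNA was well above background at 65.9%, 47.3% and 51.0% of spots on arrays 1 to 3, and input at 83.3%, 69.0% and 69.3%. The number of arrays limits the precision, and each array is its own slide, so slide and pool cannot be told apart.

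Regions were tested against 0 with limma 3.58.1 in R 4.3.3 over all regions, with Benjamini-Hochberg adjustment at 0.05, after a check on simulated data. Windows, flanks, centres and edges were compared as means per array, with SDs and no p-value; 3 arrays allow no two-sided exact sign-flip p below 0.25. Promoters come from RefSeq tables (GRCm38.p6), matched by symbol. In each window the named regions are the 3 highest and 3 lowest with at least 5 probes and at least 50% of measurements above background in both channels, up to 2 with the fewest bound measurements above background while at least 50% of the input ones are, the longest, and those nearest each edge; the brightest input was added after its values were seen. Members, lists and alternatives were chosen with earlier results of these data known. The normexp alternative used median signals, since the files hold no mean signals. Computation used Python 3.11.15.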

Additional observations from a re-analysis of the deposited data

How the results depend on the processing

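The type II and type I windows stayed above their flanks, and above the epidermal differentiation window, under every alternative run (type II minus flanks 0.48 to 1.13, type I minus flanks 0.15 to 0.45). The main limits are 3 arrays, 1 dye orientation and a point of 0 set by the design of the array. Ratios are also upper limits where bound DNA is dim, and are not measured where both channels are dim. The cause of each change below was not tested.

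With normexp on median signals the type II window exceeded its flanks by 0.484, the epidermal differentiation window by 0.479 and the type I window by 0.337, the type I window exceeded its flanks by 0.196 and the epidermal differentiation window by 0.142, and the centre minus the edges was -0.426 in type II and -0.283 in type I regions. With loess the corresponding values were 0.748, 0.72 and 0.509 for type II, 0.291 for type I minus flanks, and -0.467 and -0.172 for the centre minus the edges. With the series matrix values type I minus flanks was 0.148, epidermal differentiation minus flanks -0.158, type II minus epidermal differentiation 1.242, type I minus epidermal differentiation 0.376, type II minus type I 0.866, and the centre minus the edges was -0.808 in type I and -0.372 in epidermal differentiation regions. With probes whose input was above background on all arrays, type II and type I minus flanks were 1.127 and 0.452, epidermal differentiation minus flanks -0.146, type II and type I minus epidermal differentiation 1.258 and 0.533, and the type I centre minus edges -0.792. With both channels above background, type II minus flanks was 0.791, epidermal differentiation minus flanks -0.15, type I minus epidermal differentiation 0.448, type II minus type I 0.486 and the type I centre minus edges -0.364.

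Flanks of 2 Mb gave 0.844 for type II. For the epidermal differentiation window, whose main difference from its flanks lay within its SD, flanks of 0.5 Mb gave -0.092 and medians over regions -0.146; with the SDs over arrays the values above were -0.158 ± 0.009, -0.146 ± 0.094 and -0.15 ± 0.03, all below the flanks. The calls with the mode of each array as 0 were 11 higher and 7 lower in type II, 10 and 53 in type I, 2 and 52 in epidermal differentiation regions and 2501 and 22196 over all. Loess gave 11 lower calls in type I and 17 higher and 12 lower in epidermal differentiation regions. Input above background gave 7 higher and 31 lower in the last, and both channels above background 13 higher and 10 lower of 38 regions there, 51 and 6 of 76 in type I and 11410 and 4980 of 22041 over all. Without replicate 1, 2 or 3 the lower calls in type I ranged from 11 to 14. Of 188 alternative values 137 stayed within the SD or within 1.5 times the count. No paired analysis was possible because there is 1 group, so that no replicate number pairs samples of different groups; windows, flanks, centres and edges were compared within each array.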

Other observations

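In the flank above the type II keratin window, 12 regions between 102.75 and 102.85 Mb of chromosome 15 averaged -0.76 ± 0.12, and the lowest flank region of all, chr15:102180970-102181835 (mm9, 10 probes), was at -2.28, -2.16 and -2.22, with bound DNA above background in 6 of 30 measurements and input in 29 of 30. In the flank below, chr15:100550751-100551297 was at 1.79, 2.08 and 1.60 with all 21 measurements of both channels above background. Next to the type I keratin window, chr11:98448506-98449886 was at -2.37, -1.99 and -1.94, with 17 of 48 bound measurements above background, and chr11:98246604-98247976 was at 1.79, 1.92 and 1.39. No cause was tested for any of these.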
